A study of Mus musculus with 16 samples.

Results

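The pituitary hormone genes Prl, Gh, Pomc, Cga and Tshb and the nuclear receptor gene Nr5a1 were followed on 16 arrays. They were chosen by their mouse values in brain, where several of them had low ratios, so the brain values describe the choice and carry no test. Each hormone gene had 1 probe and Nr5a1 had 3, giving 6 genes and 8 probes of 9026 named genes and 20794 probes. The mutant mice were C57BL/6J males of genotype HdhQ111/+ heterozygote, 18 weeks old, carrying 1 copy of a knock-in allele of the huntingtin gene with an expanded CAG repeat. In each tissue their RNA was compared with an RNA pool from 4 C57BL/6J wildtype males aged 18 weeks. Brain and liver came from the same 4 mutant mice, and the same 4 wildtype mice made up both pools. Every mouse and tissue had 2 two-colour arrays, one with the HdhQ111 RNA in Cy5 and one with it in Cy3.

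The pituitary is a gland attached to the base of the brain, whose front lobe holds separate cell types for separate hormones. Prolactin (Prl) comes from lactotrophs, growth hormone (Gh) from somatotrophs, and corticotropin, cut from the Pomc precursor, from corticotrophs. Thyrotropin is a pair of chains, the shared glycoprotein hormone subunit Cga and the specific subunit Tshb, and Cga also pairs with the beta chains of the gonadotropins. Nr5a1, also called steroidogenic factor, is a transcription factor of gonadotrophs, of the ventromedial hypothalamus and of the steroid-producing cells of adrenal gland and gonads.

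All values are log ratios taken as base 2, and a mouse value is the mean of its 2 arrays. Below 0 most likely means lower in HdhQ111 RNA than in the wildtype pool, but no source used here states the sign. The values hold no expression level, so neither the labelled tissues nor signal over background could be checked against marker levels. The labels name the tissue as brain only, and in bulk RNA fewer cells of a type and less RNA per cell cannot be told apart. An array held 19530 to 20584 values with medians from -0.128 to 0.246. In all, 1496 ratios were 16.49 to 16.99 in size while no other exceeded 8.30. Such ratios were found in 3.95% of all probes in brain and 2.05% in liver, and 1 of the 126 ratios of the 8 probes was of that kind. Names were taken from the platform probe 11 places before each value row, an offset first noticed on pituitary genes in these data. With the 6 genes left out, same-gene probes lying 50 rows or more from each other had a mean correlation of 0.048 at that offset, 0.0083 without one and at most 0.020 at the other offsets of the 121 tried (4906 pairs). Probe pairs are not independent replicates.

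Prl and Gh, related hormones of one protein family, had the lowest brain ratios of the 6 genes. For Prl the mouse values were -3.97, -4.38 and -4.49 in mice 2, 3 and 4, a mean of -4.28 ± 0.27 (SD, n = 3). Mouse 1 had only the Cy3 array, at -4.14, and no Cy5 value. All 7 Prl arrays were thus below -3, and on the assumed base the mean is 19.5 times lower than the pool, from 15.7 to 22.5 times over the mice. Prl averaged -4.11 ± 0.84 (n = 3) with the HdhQ111 RNA in Cy5 and -4.38 ± 0.41 (n = 4) with it in Cy3.

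Gh reached -4.86, -2.29, -5.06 and -5.20 in mice 1 to 4, with a mean of -4.35 ± 1.38 (SD, n = 4), or 20.4 times lower. Mouse 2 stood apart from the other three, and its arrays differed from each other, with -3.91 in Cy5 and -0.68 in Cy3. Without mouse 2 the mean was -5.04. The other 7 Gh arrays lay between -6.00 and -3.72, so the spread of Gh came mostly from 1 array. By dye, Gh averaged -4.58 ± 0.99 in Cy5 and -4.12 ± 2.42 in Cy3 (SD, n = 4 each).

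Pomc, the corticotropin precursor, is also made by neurons of the arcuate hypothalamus. Its mouse values in brain were -2.92, -1.99, -2.95 and -3.16, with a mean of -2.75 ± 0.52 (SD, n = 4), or 6.74 times lower. All 8 arrays were below -1, from -3.80 to -1.27, and the dye means were close at -2.71 in Cy5 and -2.80 in Cy3. In mice 1 and 3 the 2 arrays differed by 0.13 and 0.080 only.

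The chains of thyrotropin differed in their brain mouse values. Cga lay at -1.33, -1.13, -1.77 and -2.23 in mice 1 to 4, with a mean of -1.62 ± 0.49 (SD, n = 4), or 3.06 times lower. Its Cy3 array of mouse 2 was the exception, at 0.24 against -2.49 on the Cy5 array, while the other 7 arrays lay between -2.49 and -1.29. Tshb, the chain found in thyrotropin only, was at -0.17, 0.01, -0.39 and -0.31, with a mean of -0.22 ± 0.17 (SD, n = 4). The highest Cga mouse value was below the lowest Tshb mouse value, so the mouse values of the 2 genes did not overlap. Single arrays did, through the Cga array at 0.24, as the Tshb arrays ran from -1.09 to 0.32. The other beta chains, Lhb and Fshb, had no named row here.

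**Figure D1:**
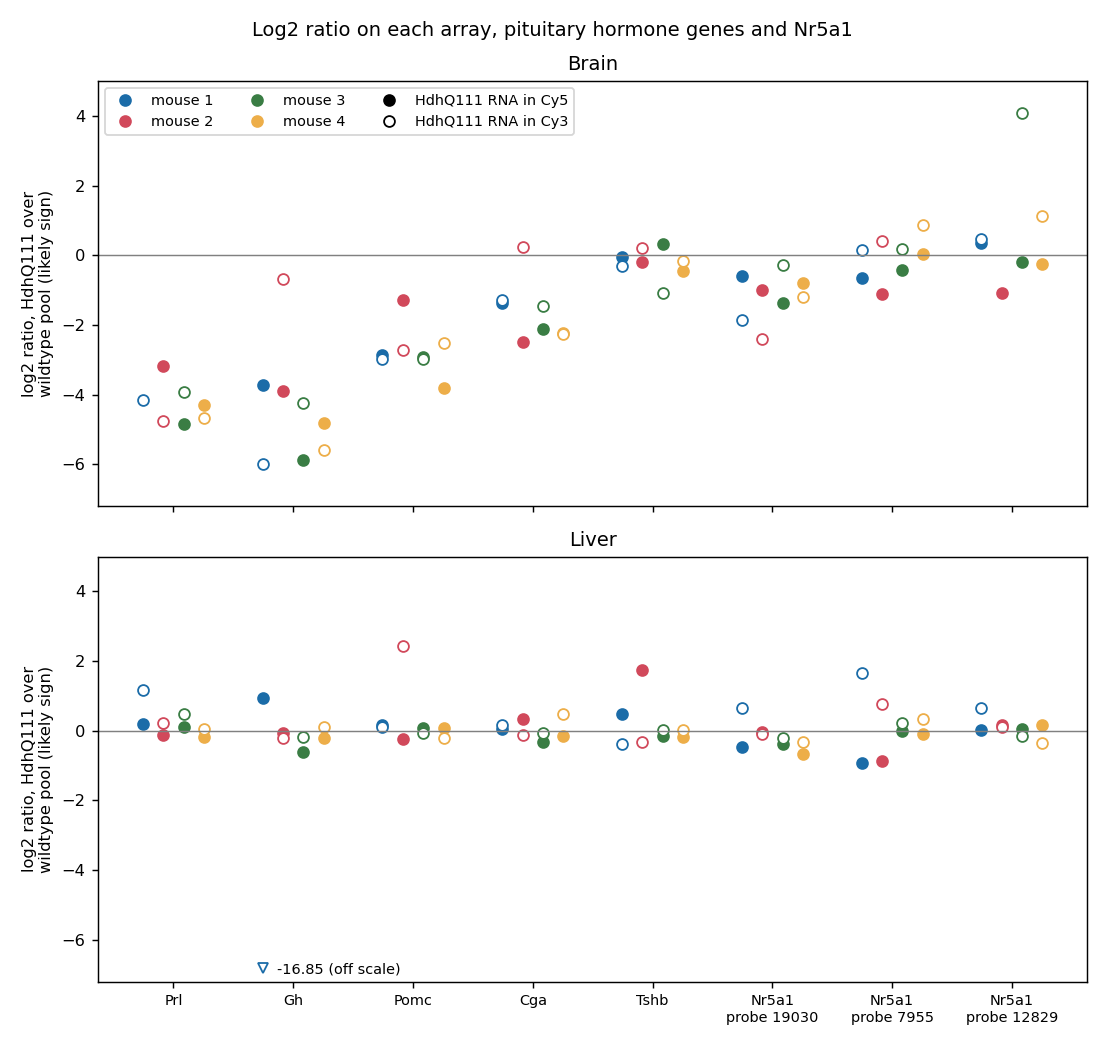
Log2 ratio (y axis) of each of the 8 probes (x axis) on every array in brain (top) and liver (bottom), with colours for the 4 mice, filled points for HdhQ111 RNA in Cy5 and open points for HdhQ111 RNA in Cy3. Most brain points of Prl, Gh, Pomc and Cga lie below -1, with mouse 2 in Cy3 at -0.68 for Gh and 0.24 for Cga as the exceptions, while their liver points lie between -0.62 and 2.44 apart from 1 Gh ratio at -16.85, drawn as a triangle at the lower edge because it is off the scale.

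The promoters of the hormone genes are shown because 3 of them, Prl, Pomc and Cga, had low brain ratios while Tshb did not. RefSeq (build GRCm38.p6) gave the 250 bases before the start of 4 of the 6 genes, namely Prl (chr13:27057320-27057569, plus strand), Pomc (chr12:3954695-3954944, plus strand), Cga (chr4:34893529-34893778, plus strand) and Tshb (chr3:102782715-102782964, minus strand). Each is written 5′ to 3′ in the direction of its gene. The start used for Tshb lies inside the span that RefSeq gives that gene, whereas the other 3 windows end where the gene begins. Capitals mark matches on either strand to TATAAA (the TATA box), AAGGTCA (the core site bound by Nr5a1 and related receptors) and ATGNATAT (a site of the pituitary factor Pou1f1).
Prl: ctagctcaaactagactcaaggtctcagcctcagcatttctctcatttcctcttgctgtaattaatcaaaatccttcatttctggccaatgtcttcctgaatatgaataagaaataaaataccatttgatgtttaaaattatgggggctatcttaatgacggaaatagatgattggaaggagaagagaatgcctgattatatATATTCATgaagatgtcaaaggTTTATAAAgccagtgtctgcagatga
Pomc: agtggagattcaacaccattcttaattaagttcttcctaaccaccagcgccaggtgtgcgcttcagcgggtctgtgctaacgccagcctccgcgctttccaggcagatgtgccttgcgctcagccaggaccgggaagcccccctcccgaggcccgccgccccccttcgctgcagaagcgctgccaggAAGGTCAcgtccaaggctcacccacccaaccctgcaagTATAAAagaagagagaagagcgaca
Cga: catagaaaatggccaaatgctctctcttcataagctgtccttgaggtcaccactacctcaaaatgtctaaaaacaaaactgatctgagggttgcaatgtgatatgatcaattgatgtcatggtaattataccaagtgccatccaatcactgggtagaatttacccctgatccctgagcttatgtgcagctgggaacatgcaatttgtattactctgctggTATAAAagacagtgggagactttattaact
Tshb: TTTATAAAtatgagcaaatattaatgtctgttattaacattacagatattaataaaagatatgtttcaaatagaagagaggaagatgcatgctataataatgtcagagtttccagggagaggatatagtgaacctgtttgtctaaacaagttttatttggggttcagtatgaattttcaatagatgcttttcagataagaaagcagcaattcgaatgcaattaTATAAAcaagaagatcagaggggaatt

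TATAAA stood in all 4 windows, ending 19 bases before the start in Prl, 20 in Pomc, 25 in Cga and 22 in Tshb. It occurred on either strand in 12.4% of 32851 promoter windows of this length. In Prl a match on each strand overlapped, and Tshb held a second overlapping pair at the far end of the window. AAGGTCA was found in Pomc only, 63 to 57 bases before the start, and in 4.08% of all windows. ATGNATAT was found in Prl only, on the opposite strand 48 to 41 bases before the start, and in 2.79% of all windows. No window held both of the last 2 motifs, and Cga and Tshb, which differed in brain ratio, had the same motifs of the 3 searched. A match describes letters and not a bound site. Only exact matches were searched, so a window without a match may still hold a variant of that site, and Cga is not shown to lack an Nr5a1 site.

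Set against the whole array, 4 of the 8 probes, those of Prl, Gh, Pomc and Cga, were below -1 in every mouse with a value. This held for 9 of 19325 probes in brain (0.0466%), and since these values chose the genes nothing is read from that comparison. With Nr5a1 probe 19030 added, 5 of the 8 were below 0 in every mouse, as were 5.7% of all brain probes. Of the 5 others, Cacna1c and Elf4 rested on ratios over 10 in size, 2 had no name, and the last was the lens crystallin gene Crybb2. Just 2 probes of 19195 with at least 7 arrays (0.0104%) were below -1 on every array, those of Prl and Pomc. Among the 18892 tested brain probes without a ratio over 10 in size, Gh was the lowest, Prl was next, Pomc followed, and 9 probes were below Cga. In limma's test over all brain probes 0 of 19325 passed an adjusted p of 0.05 (0% called), and 677 had an unadjusted p under 0.05 (3.5%).

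The mice kept one order in the 4 low hormone genes. Mouse 4 was lowest, then mouse 3, then mouse 1 and then mouse 2 for Gh, Pomc and Cga, and Prl, with no value in mouse 1, had the same order for the rest. Mouse 2, the highest in each, also had the widest gap between its 2 arrays in each of the 4: 3.23 for Gh, 2.73 for Cga, 1.58 for Prl and 1.44 for Pomc. The weaker array of mouse 2 was the Cy3 one for Gh and Cga and the Cy5 one for Prl and Pomc. The mean gap between the 2 arrays of a mouse was 0.95 for Prl, 1.98 for Gh, 0.74 for Pomc and 0.87 for Cga. The mouse values themselves spanned 0.515, 2.91, 1.16 and 1.11, so neighbours in the order are not well separated. The 4 genes share RNA samples, arrays and pool, so this order describes 4 mice and not independent genes. Tshb differed from this order only in mice 3 and 4, with mouse 3 lowest at -0.39 and mouse 4 at -0.31, and its mean gap between arrays was 0.58. Nr5a1 probe 19030 had another order, with mouse 2 lowest, then mice 1, 4 and 3.

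The 3 probes of Nr5a1 disagreed in brain. Probe 19030 was low in every mouse, at -1.23, -1.70, -0.83 and -1.01, with a mean of -1.19 ± 0.37 (SD, n = 4), or 2.28 times lower, and all 8 of its arrays were below 0. By contrast, probe 7955 lay at -0.25, -0.36, -0.13 and 0.46, with a mean of -0.07 ± 0.37 (SD, n = 4). The third, probe 12829, had values of 0.40, 1.96 and 0.43 in mice 1, 3 and 4, with a mean of 0.93 ± 0.89 (SD, n = 3). The platform gives all 3 the same transcript.

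For both of the other probes the sign depended on the dye. Nr5a1 probe 7955 averaged -0.54 in Cy5 and 0.40 in Cy3, and Nr5a1 probe 12829 averaged -0.29 in Cy5 and 1.89 in Cy3, the latter with 4.10 on the Cy3 array of mouse 3. Nr5a1 probe 19030 kept its sign, with -0.94 ± 0.33 in Cy5 and -1.44 ± 0.91 in Cy3 (SD, n = 4 each). Mean signs that differed between the dyes were found for 2 of the 8 probes and for 66.8% of all brain probes. The low value of Nr5a1 therefore belongs to 1 of its 3 probes, the one that led to its choice, and the gene as a whole had no single direction.

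The rows beside each gene were examined because Tshb, Cga and Prl lie in consecutive rows. Crybb2, in the row after Prl, was at -1.90 ± 0.34 (SD, n = 4), and Cga, in the row before Prl, at -1.62. A row further out, Tshb was at -0.22 and the crystallin gene Crygs at 0.19 ± 0.55, and S100a5, next to Tshb, was at 0.04 ± 0.34. The lowest mean thus lay in the middle of 3 adjacent low rows, and the part that the rows' order had in the values of Cga and Crybb2 was not tested.

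Within 2 rows of Gh and Pomc no other row had a mean below -1. In the 2 rows on each side of Gh with at least 3 mice, Cdkn1b was at -0.41 ± 1.10 (n = 3), Cfdp1 at 0.40 ± 0.61 (n = 4) and Arpp21 at 0.23 ± 0.56 (n = 4), each within its SD of 0. Ufsp2, next to Gh, had a value in 1 mouse. Around Pomc, 3 unnamed rows were at 0.33, -0.19 and -0.017 and Tsga10 at 0.41 ± 0.42 (n = 3), while an unnamed row 4 places after Pomc was at -1.14 in the 2 mice that had a value. Beside Nr5a1 probe 19030 lay genes of the same receptor class, Hnf4a at 0.53 ± 0.55 (n = 3) and Nr2f2 at 0.16 ± 0.30, and Fth1 at 0.06 ± 0.10. Next to the other Nr5a1 probes, Tbc1d19 was at 0.08 ± 0.25, Pkd2l2 at 0.27 ± 0.78 and Fnta at -0.03 ± 0.36, all within their SD of 0.

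**Figure D2:**
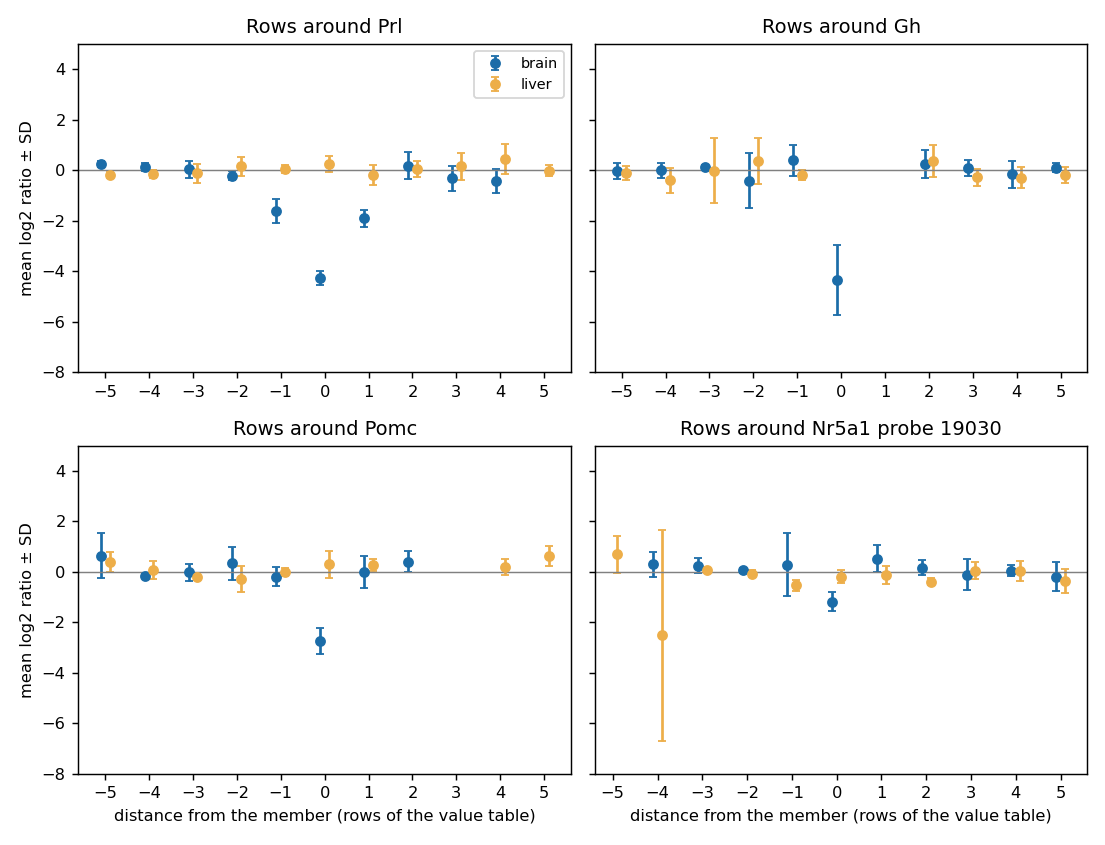
Mean log2 ratio with the SD over mice (y axis) in the 5 rows to each side of Prl, Gh, Pomc and Nr5a1 probe 19030 (x axis, distance in rows), for brain and liver, with only rows that have a value in at least 3 mice and without the liver value of Gh. Gh, Pomc and Nr5a1 probe 19030 are the only plotted rows of their panels with a brain mean below -1, while Prl at -4.28 has Cga at -1.62 and Crybb2 at -1.90 on its sides.

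Liver was not used to choose the genes, and their liver ratios were tested with limma over all 20127 liver probes. None of the 8 probes passed. Their adjusted p values ran from 0.636 to 0.856, and 0 of the 8 had an unadjusted p under 0.05, against 0% of all liver probes called after adjustment and 7% with an unadjusted p under 0.05. No other tool was run. A p above the threshold does not show that the ratios were 0.

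Prl in liver was at 0.67, 0.06, 0.30 and -0.06 in mice 1 to 4, with a mean of 0.24 ± 0.32 (SD, n = 4, limma adjusted p = 0.636). Pomc was at 0.13, 1.11, 0.02 and -0.06, with a mean of 0.30 ± 0.54 (adjusted p = 0.655 with limma). Its one high value, in mouse 2, came from the Cy3 array at 2.44, while the Cy5 array was at -0.23. Cga ranged from -0.19 to 0.17 with a mean of 0.05 ± 0.16, and Tshb from -0.07 to 0.71 with a mean of 0.16 ± 0.37. For these 4 hormone genes the mice lay on both sides of 0.

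Gh in liver was at -7.96, -0.13, -0.40 and -0.06 in mice 1 to 4. The first of these combined 0.93 in Cy5 with -16.85 in Cy3, the one ratio over 10 in size among the 8 probes. With it the mean was -2.14 ± 3.89 (SD, n = 4, limma adjusted p = 0.643), and without it -0.19 ± 0.18 (SD, n = 3, limma adjusted p = 0.643). All 4 mice were below 0, but mouse 1 only through its ratio over 10. Of all liver probes, 12.7% were below 0 in every mouse.

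Nr5a1 in liver had probe means of -0.18 ± 0.26 for Nr5a1 probe 19030, 0.14 ± 0.17 for Nr5a1 probe 7955 and 0.08 ± 0.19 for Nr5a1 probe 12829 (SD, n = 4 each). No probe of it kept one sign over all mice. Over the 8 probes, 5 had dye means of opposite sign in liver, a share near the 64.6% of all liver probes. Prl, Pomc and Nr5a1 probe 12829 had dye means of one sign, above 0.

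**Figure D3:**
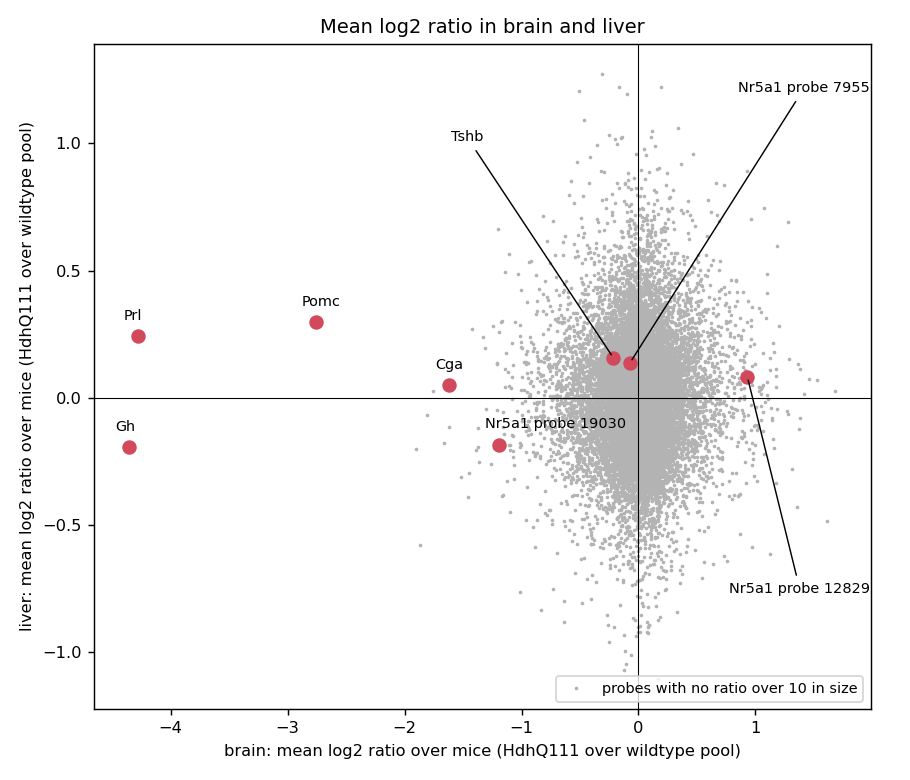
Mean log2 ratio over mice in brain (x axis) and liver (y axis) for probes without a ratio over 10 in size (grey), with the 8 probes in red and Gh in liver drawn without its ratio over 10. Prl, Gh, Pomc and Cga lie to the left of nearly all probes in brain and between -0.19 and 0.30 in liver.

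The difference between tissues within a mouse rests on the brain values and is given without a test. Liver minus brain was 4.38 ± 0.33 for Prl (SD, n = 3), 3.05 ± 0.06 for Pomc, 1.67 ± 0.51 for Cga and 0.37 ± 0.23 for Tshb (n = 4 each), and every mouse with both values was higher in liver. The Pomc difference varied far less than its parts, from 2.96 to 3.10, with the mean of mouse 2 high in both tissues. The arrays of mouse 2 did not match, with -1.27 in Cy5 and -2.72 in Cy3 in brain. In liver they were at -0.23 in Cy5 and 2.44 in Cy3. The narrow spread of the Pomc difference therefore rests on means of unlike arrays. The Nr5a1 probes went different ways. The difference was 1.005 ± 0.56 for Nr5a1 probe 19030 (n = 4) and 0.21 ± 0.40 for Nr5a1 probe 7955 (n = 4), but -0.86 ± 1.01 for Nr5a1 probe 12829 (n = 3), which was higher in liver in 0 of 3 mice. Gh ranged from -3.11 in mouse 1, with the ratio over 10, to 5.14. Over all 19055 probes limma, fitted without a mouse term, called 1 (0.00525%), that of Prl. With the mouse as a block it called Pomc in its place. Because the brain values chose both genes, nothing is read from these calls.

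Lists of genes that act with these hormones, respond to them or mark other tissues had medians between -0.14 and 0.20 in brain. They were chosen with earlier results of these data known, and with probes of a gene averaged 81 genes were tested in brain and 80 in liver. None passed limma's test over all genes, as was true of 0% of the 8621 genes in brain and of the 8828 in liver. At an unadjusted p under 0.05 were 5 of the 81 in brain (3.12% of all genes) and 4 of the 80 in liver (7.6% of all genes). Over all genes the median was 0.024 in brain and -0.031 in liver.

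Of the pituitary transcription factors 4 of 18 were measured, with a median of 0.039 in brain, 2 higher and 2 lower. Egr1, which acts on the beta chain of luteinising hormone, was at -0.46 ± 0.24 (SD, n = 4), and Gata2, a factor of thyrotrophs and gonadotrophs, at 0.54 ± 0.56 (n = 3). Pou1f1, Tbx19 and Pitx1, which act in the hormone cell lineages, had no named row here. In liver Gata2 was at -0.17 ± 0.27 and Egr1 at -0.13 ± 0.48, and the list's median was -0.10.

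Hypothalamic factors that drive or restrain the pituitary had 6 of 16 genes tested in brain, with a median of 0.031, 4 higher and 2 lower. Trh, which stimulates thyrotropin and prolactin, was at 0.04 ± 0.40, Gnrh1, which stimulates the gonadotropins, at 0.09 ± 0.54, and Sst, which restrains growth hormone, at -0.07 ± 0.19 (SD, n = 4 each). Avp, which acts with Crh on corticotrophs, was at 0.20 ± 0.38. Each lay within its SD of 0. In liver the list had a median of 0.0086, with Trh at 0.02 ± 0.18, Gnrh1 at 0.31 ± 1.20, Sst at 0.19 ± 0.42 and Tac2 at -0.07 ± 0.17.

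Receptors through which the hypothalamus acts on the pituitary had 4 of 15 genes tested in brain, 3 higher and 1 lower, with a median of 0.20. Crhr1, the receptor for corticotropin-releasing hormone, was at -0.12 ± 0.20, and Sstr3, a somatostatin receptor, at 0.34 ± 0.40 (SD, n = 4 each). Drd2, the dopamine receptor that restrains prolactin and is abundant in striatum, was at 1.08 ± 1.77, with 2 ratios over 10 in size among its 3 probes. In liver Crhr1 was at -0.25 ± 0.09, with an unadjusted p of 0.0266 and an adjusted p of 0.598 in limma, Adcyap1r1 at -0.32 ± 0.39 and Drd2 at -0.04 ± 0.34, and the list's median was -0.042.

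Of the 12 receptors and receptor partners for the hormones themselves 2 were measured. Tshr, the thyrotropin receptor, was at 0.37 ± 0.44 in brain (n = 3) and 0.06 ± 0.47 in liver (n = 4). Mrap, the partner of the corticotropin receptor, was at 0.01 ± 0.31 in brain and -0.14 ± 0.13 in liver (n = 4 each). Both genes lay within their SD of 0 in brain.

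Prohormone processing and secretory granule genes had 10 of 14 tested in brain, without Pcsk1 and Pcsk2, the enzymes that cut the Pomc precursor, which had no named row here. They had a median of -2.5e-04, with 5 higher and 5 lower, and ranged from -0.15 to 0.16. Cpe, which trims the cut peptides, was at 8.8e-04 ± 0.22, Cadps at 0.16 ± 0.13 and Pcsk1n at 0.15 ± 0.26 (SD, n = 4 each). Secretory granule genes therefore did not share the shift of the 4 hormone genes, though neurons also express them. In liver the median was -0.0075, Chgb was at 0.37 ± 0.29, and Scg3 at -2.36 ± 4.98 (n = 3) rested on 1 ratio over 10 in size.

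Steroid synthesis genes and other targets of Nr5a1 had 12 of 20 tested in brain, 6 higher and 6 lower, with a median of 0.028. Cyp11a1, which starts steroid synthesis from cholesterol, was at 0.41 ± 0.16, with an unadjusted p of 0.0138 and an adjusted p of 0.999 in limma, and Hsd17b3, of testosterone synthesis, at 0.70 ± 0.65 (SD, n = 4 each). Hsd3b2 at -2.46 ± 3.77 rested on 1 ratio over 10 in size. In liver the list had a median of -0.10, with Nr5a2, the close relative of Nr5a1 in liver, at -0.29 ± 0.25 and Fdx1 at -0.19 ± 0.13. Of the genes of the ventromedial hypothalamus, where Nr5a1 is active in brain, 1 of 10 was measured, Nptx2 at 0.10 ± 0.28 in brain and -0.73 ± 2.32 in liver (n = 3), the latter with a ratio over 10.

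The 12 other genes listed as pituitary-enriched were all tested in brain, with a median of -0.077, 4 higher, 8 lower and none below -1. Whether they are enriched over brain could not be checked, since the values hold no expression level. S100b, of folliculostellate cells and also of astrocytes, was at 0.75 ± 0.43 and Dlk1 at -0.30 ± 0.32 (SD, n = 4 each). Cd24a at 1.21 ± 1.68 held a ratio over 10 in size. In liver 10 were tested, with a median of -0.044, Krt18 at -0.27 ± 0.12 and Rbp4 at -0.31 ± 0.41. How much pituitary tissue the brain samples and the pool contained was not tested.

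Growth hormone acts on the liver, where it induces Igfals, a carrier of circulating growth factor, and the feedback inhibitors Socs2 and Cish. In liver Igfals was at -0.09 ± 0.03, Socs2 at -0.0042 ± 0.11 and Cish at -0.20 ± 0.09 (SD, n = 4 each), with adjusted p values in limma of 0.673, 0.985 and 0.598. Igfals and Cish were below 0 in all 4 mice, as were 14.1% of the 8828 liver genes tested. Growth hormone in blood was not part of these data, so these liver ratios are not weighed against the Gh ratio in brain.

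**Figure D4:**
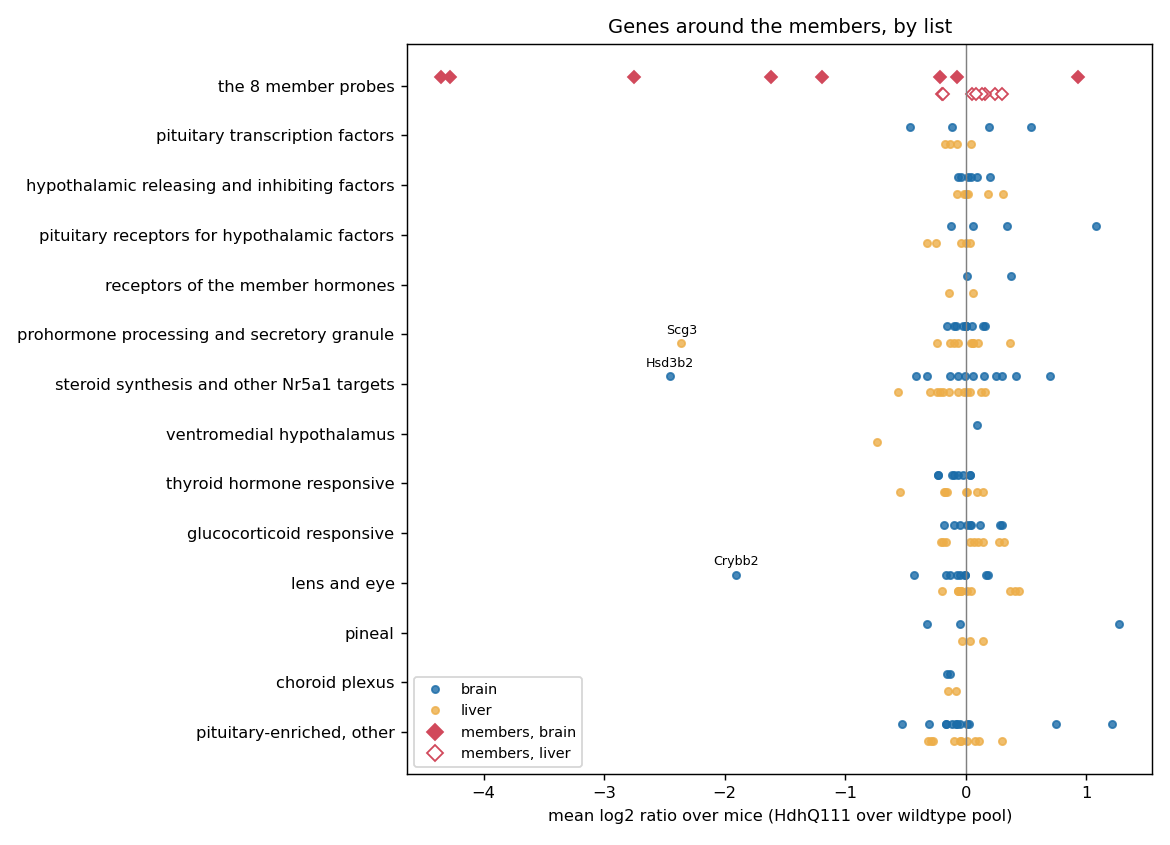
Mean log2 ratio over mice (x axis) of the genes tested in each list (y axis), brain in blue and liver in orange, with the 8 probes as diamonds in the top row, filled for brain and open for liver (Gh in liver without its ratio over 10). Crybb2 is at -1.90 in brain, and Scg3 in liver and Hsd3b2 in brain, at -2.36 and -2.46, each hold a ratio over 10 in size.

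Likeness was measured as the root mean square difference in mouse values over brain and liver, over at least 6 of 8 values and leaving out probes with a ratio over 10. Only named genes outside the 6 were compared, so the 6 were not set against each other. The brain values that chose the genes enter these differences, and Gh and Prl were the lowest brain probes without a ratio over 10. Large differences for them were thus set by the choice, and nothing is read from them. The nearest genes to Prl were Cops5 at a difference of 1.49 and Cngb1 at 1.55, each over 6 values. Prl itself lies 2.82 from 0 over all of its own values, which is not the same set. For Gh they were Rad9b at 1.73 (6 values) and Crybb2 at 2.02 (7 values). Pomc was nearest to Crybb2 at 0.82 (8 values) and Naprt at 0.94 (6 values).

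Differences were smaller for Cga, with Naprt at 0.19 and Acot12 at 0.36, each over 6 values. Nr5a1 probe 19030 was also nearest to Naprt, at 0.27, and to Vwa1, at 0.29, each over 6 values. Naprt averaged -1.19 in brain and 0.0037 in liver, but it had only 6 of the 8 mouse values, and those it lacked were in brain. Its brain mean thus rests on fewer mice than a tested probe needed. Its differences from Cga, Pomc and Nr5a1 probe 19030 leave out the brain values of the other mice. Tshb was nearest to Serpinb12 (0.14, 7 values) and Ier3 (0.14, 8 values), and Nr5a1 probe 7955 to Nek7 (0.12) and Alkbh2 (0.13), each over 8 values. For Nr5a1 probe 12829 they were Rhox5 (0.14) and Dsg1b (0.16), each over 6 values. Their brain means were 0.12 and 0.10, against 0.93 for the probe. The small differences therefore hold for the shared values only and not for the brain mean.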

How the data were processed

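Each of the 16 samples was 1 two-colour cDNA array of RNA from an HdhQ111/+ mouse against the wildtype pool of its tissue, with reverse-transcribed RNA labelled indirectly, per the labels. The deposited values are log2 ratios, with base 2 assumed. Scanner, background correction, normalization and filters are not stated by any label or header used. The dye difference of a pair correlated between tissues (Spearman's rho 0.397 over 20599 probes) and the pair mean did not (-0.0075), so columns were taken as already turned one way.

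Platform annotation gave 12771 probes 1 symbol, 0 several and 8023 none, and all 12771 matched a current gene. Moved by 11 rows, they named 12760 rows. A mouse value needed both arrays and a tested probe at least 3 mice. Ratios were tested against 0 per tissue with limma 3.58.1 in R 4.3.3 (two-sided, Benjamini-Hochberg over all probes, threshold 0.05), after a test on simulated data. The wildtype pool is 1 control sample, so its own spread is left out. Arrays hold no counts, and their number limits the precision. The main liver minus brain fit used the 8 mouse values with a tissue term and no mouse term. Pairing by mouse entered only in the alternative with the mouse as a block. With ratios over 10 removed, a mouse's deviation from the tissue mean in brain was correlated with that in liver. The correlation (rho) came to 0.071 in mouse 1, -0.0036 in mouse 2, 0.103 in mouse 3 and 0.024 in mouse 4.

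Genes and lists were chosen with earlier results of these data known. Named were the 6 genes, their neighbours within 2 rows, the 2 most alike genes of each, the 2 genes of smallest p per list and tissue, and a set of hormone axis genes. Alternatives changed the centring, ratios over 10, dye orientation, single arrays, the mouse minimum, the mice, the row offset, the block and the averaging of probes.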

Additional observations from a re-analysis of the deposited data

Results flagged for a closer look

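Of 14 sets of 4 mouse values, 4 held a mouse far from the others by Dixon's test. Its nominal rate of about 1 in 20 is for independent, normally distributed sets, and these sets share mice and arrays. The share flagged over all probes was not computed, so the count is not read as a trait of these genes. They were Gh in brain in mouse 2, at -2.291, Gh in liver in mouse 1, at -7.962, Pomc in liver in mouse 2, at 1.105, and Tshb in liver in mouse 2, at 0.711. In each of the 4 the 2 dye-swapped arrays of that mouse differed by over 2, with gaps of 3.23, 17.8, 2.67 and 2.05.

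The liver mean of Prl was 4.525 above its brain mean, and limma's fit over all probes called this difference. With the mouse as a block the called probe was Pomc in place of Prl. The brain values chose both genes, so the calls test nothing about them.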

How the results depend on the processing

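The brain means of Prl, Gh, Pomc, Cga, Tshb and Nr5a1 probe 19030 stayed below 0 with other centring and without ratios over 10. They also did so on either dye alone, with 1 array sufficing and with each mouse left out. These means were not recomputed with probes averaged or with the mouse as a block, and Prl had no value with all 4 mice required. Rows named without the offset gave brain means of 0.22 for Prl, 0.053 for Gh, -0.0885 for Pomc, 0.34 for Cga, 0.21 for Tshb, and 0.070, -0.26 and 0.013 for Nr5a1 probes 7955, 12829 and 19030. In liver they gave -0.27 for Prl, 0.086 for Gh, -0.32 for Pomc, -0.19 for Cga, -0.16 for Tshb and -0.10 for Nr5a1 probe 7955. This follows from reading other rows.

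On Cy5 arrays alone, Nr5a1 probe 7955 was at -0.54 and Nr5a1 probe 12829 at -0.29 in brain, and in liver Gh was at 0.00975, Cga at -0.0145 and Nr5a1 probe 7955 at -0.48. On Cy3 arrays alone, Nr5a1 probes 7955 and 12829 were at 0.40 and 1.89 in brain, and in liver Tshb was at -0.16 and Nr5a1 probe 19030 at 0.0105. The cause was not tested. Leaving out 1 mouse at a time, the brain means ranged from -4.44 to -4.18 for Prl, -5.04 to -4.07 for Gh, -3.01 to -2.62 for Pomc, -1.78 to -1.41 for Cga, -0.29 to -0.16 for Tshb, and -0.25 to 0.024, 0.42 to 1.20 and -1.31 to -1.02 for Nr5a1 probes 7955, 12829 and 19030. The liver means ranged from 0.0995 to 0.34 for Prl, -2.83 to -0.19 for Gh, 0.029 to 0.42 for Pomc, 0.0097 to 0.13 for Cga, and -0.027 to 0.23 for Tshb, the lowest without mouse 2. For Nr5a1 probes 7955, 12829 and 19030 they ranged from 0.062 to 0.198, 5.0e-04 to 0.14 and -0.28 to -0.081. No liver value of the 8 probes passed under any alternative.

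In brain, 0 probes passed, but 2 did on Cy5 arrays alone, both unnamed, 1 (Prl) when 1 array sufficed for a mouse value, and 0 to 1 with a mouse left out (Gh, without mouse 2). In liver the count was 0 to 0 with a mouse left out. For liver minus brain 1 probe passed (Prl), 1 on Cy5 arrays alone (unnamed and lower, so the call of Prl was lost), 2 (Pomc and Prl) without ratios over 10, 0 with all 4 mice required, which leaves out Prl, and 0 to 1 with a mouse left out, 0 without mouse 3 or mouse 4, Prl without mouse 1 and Pomc without mouse 2. With the mouse as a replicate block the count was 1, but the probe was Pomc instead of Prl. The brain values chose Prl, Gh and Pomc, so nothing is read from their calls in brain or in liver minus brain. Signal over background could not be examined.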

Other observations

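Markers of eye, pineal gland and choroid plexus were also measured. Of 16 lens and eye genes 10 were tested in brain, with 2 higher, 8 lower and a median of -0.062. Crybb2 was at -1.90 ± 0.34, and the next by p, Cryba1, at -0.43 ± 0.46 (SD, n = 3). In liver Bfsp2 was at 0.37 ± 0.19 and Cryba1 at 0.44 ± 0.58, with a list median of -0.014. Of the pineal genes 3 of 7 were tested, with a brain median of -0.047. Tph1, which starts serotonin synthesis, was at 1.27 ± 2.29 in brain with a ratio over 10 in size, and Sag at -0.32 ± 0.75 (n = 3). In liver Sag was at 0.14 ± 0.58 and Rom1 at 0.04 ± 0.20, with a median of 0.038. Choroid plexus had 2 of 8 genes, Folr1 at -0.15 ± 0.17 and Aqp1 at -0.13 ± 0.50 (n = 3) in brain, and -0.15 ± 0.60 and -0.08 ± 0.18 in liver. None of these genes passed limma's test.

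Genes that respond to the target hormones of the pituitary lay near 0. Thyroid hormone responsive genes, 8 of 13 listed symbols, had medians of -0.078 in brain and -0.080 in liver. Thrsp was at -0.23 ± 0.23 in brain and -0.54 ± 0.62 in liver, Dio2 at -0.23 ± 0.52 in brain (n = 3) and the carrier Ttr at -0.18 ± 0.17 in liver. Glucocorticoid responsive genes, 9 of 13, had medians of 0.036 in brain and 0.066 in liver. Cdkn1a was at 0.28 ± 0.42 and Dusp1 at 0.30 ± 0.64 in brain, and Mt2 at 0.32 ± 0.43 and Tat at -0.19 ± 0.23 in liver (SD, n = 4 each). None of them passed limma's test in either tissue, and hormone levels in blood were not part of these data.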
